A study of Mus musculus with 9 samples.

Results

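Subunits of the mitochondrial respiratory chain and of ATP synthase were followed in the developing urogenital sinus of the mouse, the embryonic tissue from which the prostate, bladder neck and part of the vagina form. Members were taken by name from genes with a probe set of 1 symbol: those beginning Nduf followed by a, b, c, s or v and a number, Sdha to Sdhd, and those beginning Uqcr, Cox4 to Cox8 or Atp5, with Ndufa4l2 left out. This gave 80 of 18194 genes: 34 of complex I, 4 of complex II, 8 of complex III, 17 of complex IV and 17 of complex V. Where a gene had several such probe sets, the brightest on average stood for it. After a filter on low values 77 members were tested among 13400 genes, and Cox7b2, Cox8b and Ndufb4 were not.

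The samples were 9 arrays of C57BL/6 urogenital sinus, 1 for each of 3 agents at each of 3 ages. Dams received the corn oil vehicle (Control), the synthetic estrogen diethylstilbestrol (DES) at 0.2 µg/kg/day or the plastics monomer bisphenol A (BPA) at 20 µg/kg/day, from embryonic day 13 to 16, so that every group, control included, was exposed to tocopherol-stripped corn oil. Tissue was taken after exposure had ended, on embryonic day 17 (E17) or 18 (E18) or at birth (P0). Urogenital tracts of both sexes were dissected, and the labels state neither the sex nor the number of animals or litters behind an array. Each agent was thus repeated only across ages and each age only across agents, and a p-value here reflects no more than how these arrays scatter, part of which may be technical. Signals are quantile-normalized intensities without a unit, and differences are log2 differences with the standard error (SE) of the fit.

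The respiratory chain sits in the inner mitochondrial membrane. Complex I (NADH dehydrogenase) and complex II (succinate dehydrogenase) pass electrons to ubiquinone, complex III passes them to cytochrome c, complex IV (cytochrome c oxidase) reduces oxygen, and the proton gradient built on the way drives ATP synthase, complex V. Most subunits are encoded in the nucleus, and a few of complex IV come in tissue forms: Cox6a2, Cox7a1 and Cox8b are the forms of heart and skeletal muscle, in place of Cox6a1, Cox7a2 and Cox8a elsewhere.

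One array stood apart most. The deposited intensities of the BPA P0 array had a trimmed mean of 156.7, against 235.4 to 276.7 on the other arrays. After normalization it also carried markers of other tissue: summed signals of 10 germ cell and Sertoli genes were 2950 there and 499.4 to 642.3 elsewhere, those of the steroid-making list 1399 against 106.5 to 192.8, and those of the squamous epithelium list 23480 against 4194 to 12290. The 12290 was on the BPA E18 array, which also carried other markers. Flg of the squamous list was 1338 there, 2655 on the BPA P0 array and 4.174 to 50.2 on the rest. The red cell sum was 2566 on the BPA E18 array and 571.8 to 1646 elsewhere. Mesenchyme markers, the body of this tissue, were at 65260 to 71410 on all 9 arrays. The brightest of them lie at the top of the distribution, which quantile normalization makes equal between arrays. Their sum therefore cannot show whether the share of mesenchyme was steady. Of the dimmer ones, Hoxd13 ran from 1080 to 1596 and Tbx18 from 207.8 to 341.7. The part of these features in the results below was not tested. Values without the BPA P0 array, given beside several results, still hold the BPA E18 array. In a whole tissue, fewer cells of a type and less RNA per cell cannot be told apart.

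Respiratory chain genes varied little. The standard deviation of a member's log2 value over the 9 arrays had a median of 0.0929, against 0.187 for all tested genes and 0.129 for the brightest 25% of them, which held 70 of the 77 members. Members were brighter than that 25% too, with a median log2 value of 11.1 against 10.2, so it does not match them in level. A standard deviation above 0.2 was found for 5 of 77 members (6.49%), for 45.1% of all tested genes and for 17.6% of the brightest 25%. The 5 were Cox6a2, Cox7a1 and Cox7c of complex IV, Ndufb1 of complex I and Atp5k of complex V, and 4 of them lay outside the brightest 25%. Over the 8 arrays other than BPA P0 only Cox6a2 and Atp5k kept a standard deviation above 0.2, and Cox7a1 passed the filter only with the BPA P0 array, where it was highest. Median standard deviations by complex ran from 0.0741 for complex V to 0.102 for complex I.

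The steadiest subunits differed between arrays by a few percent. Atp5d, the delta subunit of the ATP synthase rotor, had signals of 3407, 3221 and 3318 in control, 3355, 3296 and 3372 in DES and 3343, 3329 and 3390 in BPA, at E17, E18 and P0 in that order. No array stood out, and its standard deviation was 0.02 log2 units. Cox6b1, a subunit that helps join the cytochrome c oxidase dimer, was read at 5332, 5161 and 5272 in control, 5161, 5380 and 5132 in DES and 5072, 5313 and 5287 in BPA. Its groups overlapped at every age and for every agent.

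Extreme values of members were most often on the BPA P0 array. It held the highest value of 32 of the 77 members and the lowest of 10, so 42 members had an extreme value there. The control P0 array came next with 21. The same share over all tested genes was not counted, so these counts are no trait of the members. Members lay a median of 0.0739 log2 units above their own mean on the BPA P0 array, against 0.0161 for all tested genes. Above their own mean there were 56 of 77 members and 7022 of 13400 tested genes. On the DES E18 array 59 of 77 were above their own mean, with a median of 0.0501, but all tested genes had a median of 0.0425 on that array, with 8316 of 13400 above their own mean.

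**Figure D1:**
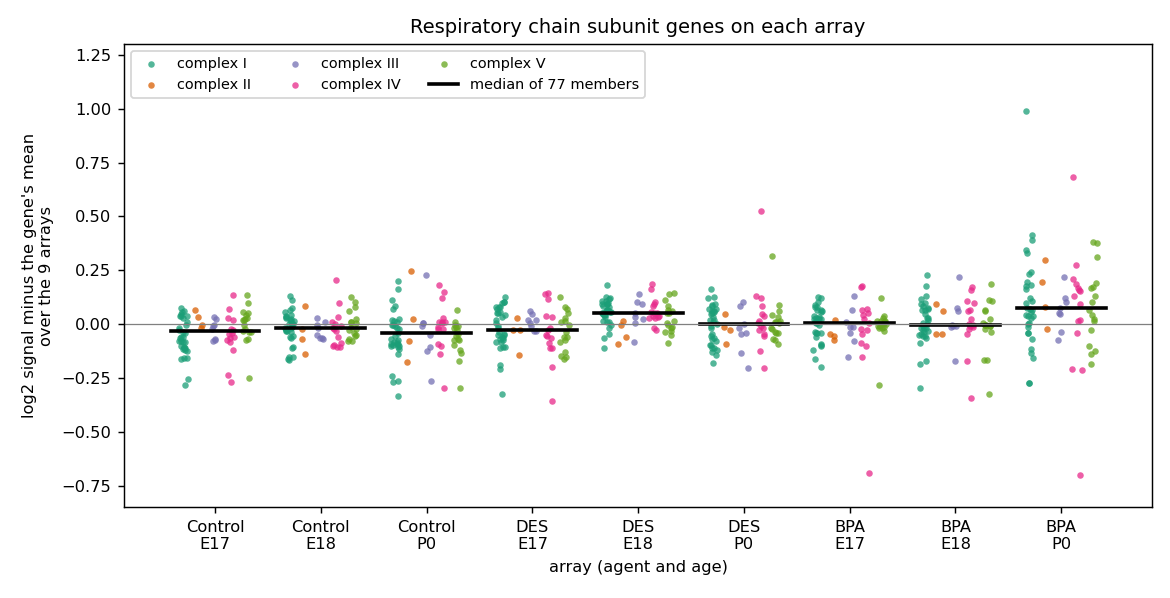
Log2 signal of each of the 77 tested members minus that gene's mean over the 9 arrays (vertical axis), by array (horizontal axis). Points are genes, coloured by complex, and black bars are the median of the 77; most points lie within 0.25 of 0, and the BPA P0 array has the highest median, 0.0739, and the widest scatter.

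The first comparison asks how the subunits changed between the last days of gestation and birth. From E17 to P0 no member passed limma's threshold of an adjusted p of 0.05, against 83 of 13400 tested genes (0.619%). Of the 77 members 42 were higher at P0 and 35 lower (all tested genes: 50.3% higher), with a median log2 difference of 0.0118 against 0.00187 for all tested genes; scaling to one trimmed mean made it 53 higher, and the deposited values, in which the median of all tested genes was -0.29, gave 4 higher. The 42 include Cox7a1, which passed the filter only through the BPA P0 array. The P0 minus E17 difference was within 0.25 log2 units for 68 members (88.3%), against 70.1% of all tested genes. Those genes are dimmer as a set, with a median log2 value of 8.3 against 11.1 for the members. At an unadjusted p under 0.05, 6 members were higher and 5 lower, or 7.79% and 6.49%, beside 9.42% and 9.78% of all tested genes. With one array left out the higher count ran from 3, without the BPA P0 array, to 10, without the control P0 array, and the lower count was 3 or 4. The deposited values gave 0 higher and 4 lower. The P0 and E17 arrays did not overlap for 8 members that were higher and 6 that were lower, shares of 10.4% and 7.79% beside 11.0% and 9.51% of all tested genes. In the same comparison all 10 smooth muscle genes were lower at P0, with a median of -0.56 and none past the threshold; their part in the subunits' values was not tested.

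Within complex I, 19 of 33 tested members were higher at P0 than at E17 and 14 lower, with a median of 0.0406. Ndufc1, an accessory subunit of the membrane arm, had E17 signals of 1555 in control, 1633 in DES and 1659 in BPA and P0 signals of 1212, 1468 and 1369. Its E18 signals were 1567, 1619 and 1729. All 3 newborn arrays lay below all 6 fetal arrays, and the P0 minus E17 difference was -0.26 ± 0.08 (SE, 3 arrays an age; limma adjusted p = 0.130). Without the DES P0 array it was -0.33, with an adjusted p of 0.0401, in a fit that called 1141 genes in all. This was the only call of a member in any of the 5 comparisons under the alternatives tried, and the gene's other probe set gave -0.10.

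Ndufb6, another membrane-arm subunit, was also lower at P0, from 2535, 2624 and 2625 at E17 to 2249, 2297 and 1989 in control, DES and BPA. At E18 it had 2234, 2575 and 2607, so the control E18 array was below the control and DES P0 arrays. The E17 and P0 arrays did not overlap, and the difference between them was -0.25 ± 0.08 (limma adjusted p = 0.151). Ndufa8, a twin-cysteine accessory subunit, went the other way, from 1489, 1212 and 1480 to 1593, 1584 and 1796, a difference of 0.25 ± 0.10 (limma adjusted p = 0.201) with no overlap. The most positive difference of complex I belonged to Ndufb1, which was dim: 88.4, 93.38 and 93.86 at E17 and 122.2, 95.25 and 220.7 at P0. The BPA P0 array alone was far above the others, and the difference of 0.55 ± 0.26 had a limma adjusted p of 0.276. Without that array it was 0.18. The difference of Ndufb6 was -0.17 without it, and the other probe set of Ndufb6 also gave -0.17.

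Of the 4 succinate dehydrogenase genes 3 were higher at P0, with differences between -0.06 for Sdhc, which anchors the enzyme in the membrane, and 0.13 ± 0.08 for Sdhd, the other anchor (limma adjusted p = 0.429 or more). For both, the mean over a gene's probe sets reversed the direction, to 0.04 for Sdhc and -0.14 for Sdhd. In complex III, 3 of 8 members were higher and 5 lower. Uqcrfs1, the Rieske iron-sulfur protein that hands electrons to cytochrome c1, had 1780, 1906 and 1688 at E17 and 2203, 1879 and 2041 at P0, with the DES arrays overlapping and a difference of 0.19 ± 0.08 (limma adjusted p = 0.259). Uqcr11, a small accessory subunit, was at 1245, 1255 and 1259 at E17 and 1042, 1212 and 1221 at P0. Its ages did not overlap, yet the spread at P0 was wide and the difference of -0.12 ± 0.08 had a limma adjusted p of 0.461.

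Complex IV held the largest positive and negative differences between P0 and E17, 0.71 for Cox6a2 and -0.35 for Cox7c, around a median of 0.0118 over 15 members. Among its ubiquitous subunits, Cox5a, a subunit on the matrix side, had 5305, 5598 and 5081 at E17 and 4741, 5001 and 4375 at P0. The groups did not overlap, and the difference was -0.18 ± 0.05 (limma adjusted p = 0.133), but its other probe sets gave -0.12 and -0.0137. Cox7a2l, a relative of the Cox7a subunits that takes part in respiratory supercomplexes, ran from 2152, 1910 and 2065 to 2432, 2400 and 2658, a difference of 0.29 ± 0.09 (limma adjusted p = 0.129) with no overlap. Its other probe sets gave 0.28 and 0.29, so 3 probe sets had the same value. Cox4i1, the regulatory subunit of most tissues, was at 0.14 ± 0.06 (limma adjusted p = 0.248), and at 0.0917 without the BPA P0 array.

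Cox7c was read from dim probe sets and turned on 1 array. It had 159.7, 157.5 and 164.3 at E17, 135, 156 and 163.8 at E18 and 145.8, 154 and 86.91 at P0. The BPA P0 array was the low one, and the difference of -0.35 ± 0.20 had a limma adjusted p of 0.373. Without that array it was -0.059, and the gene's other, dimmer probe set gave -0.34 with all arrays.

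In complex V, 9 of 17 members were higher at P0 and 8 lower, with a median of 0.00471. Atp5l, subunit g of the membrane part where ATP synthase dimers form, had 1750, 1979 and 2058 at E17 and 2182, 2220 and 2719 at P0. The ages did not overlap, and the difference was 0.29 ± 0.10 (limma adjusted p = 0.154), or 0.19 without the BPA P0 array. Atp5j2, subunit f of the same region, went from 5068, 5673 and 5243 to 4617, 5042 and 4770, a difference of -0.15 ± 0.06 (limma adjusted p = 0.234), also with no overlap. Its second bright probe set gave -0.0221, and a dim one -0.21. The alpha and beta subunits of the catalytic part were steady: Atp5a1 differed by 0.07 ± 0.06 and Atp5b by 0.00 ± 0.06 (limma adjusted p = 0.567 and 0.977).

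No member passed the threshold between E17 and E18 or between E18 and P0, nor did any of the 13400 tested genes (0% in both). At an unadjusted p under 0.05, 1 member was higher at E18 than at E17 and 0 were lower, where all tested genes gave 1.89% and 1.31%. From E18 to P0, 2 were higher and 4 lower, against 6.04% and 8.27%. With one array left out these counts ran from 0 to 6 higher and from 1 to 8 lower. The lowest of both came without the BPA E18 array, and the highest of both without the DES P0 array, where 501 genes in all were called.

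**Figure D2:**
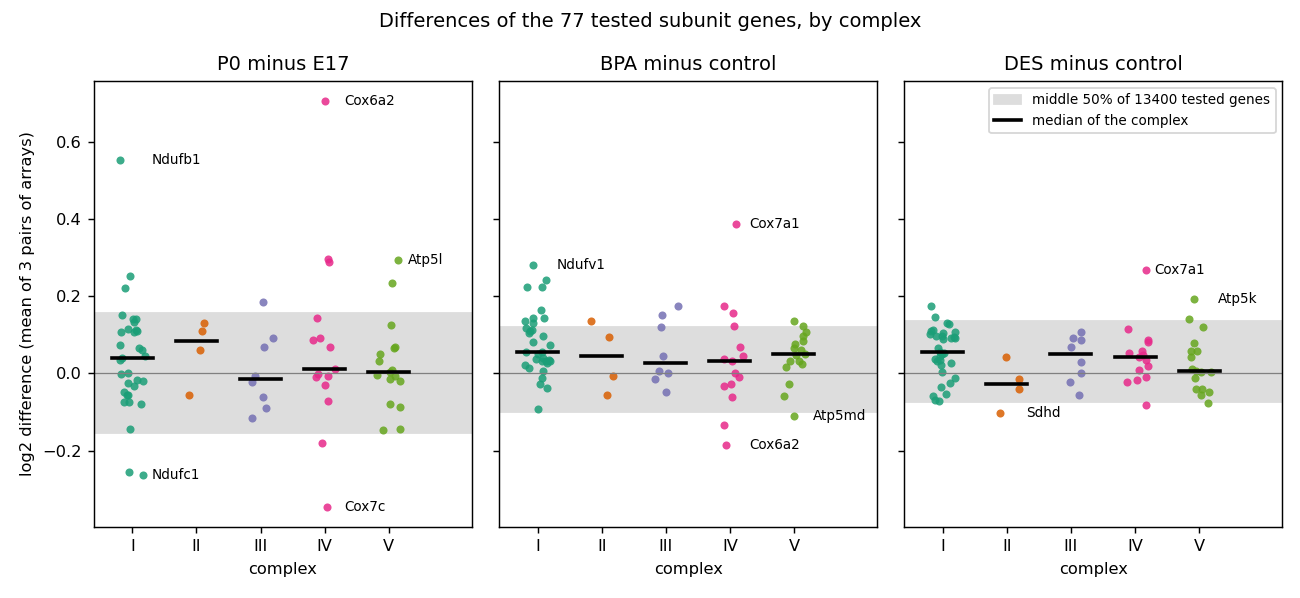
Log2 difference (vertical axis) of the 77 tested members in 3 comparisons, by complex (horizontal axis). Points are genes, black bars the median of a complex and the grey band the middle 50% of 13400 tested genes; most members lie inside the band, and Cox6a2 is the highest point of P0 minus E17 at 0.71.

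Of the tissue forms of complex IV 5 were tested, and none passed the threshold from E17 to P0, with 3 higher and 2 lower. The higher ones include Cox7a1, which passed the filter only through the BPA P0 array and is described below without a test. Cox6a2, the heart and skeletal muscle form of subunit VIa, had E17 signals of 143 in control, 131 in DES and 102.6 in BPA. At E18 it had 195.5, 179.8 and 189.7, and at P0 192.6, 245.9 and 185.5. Every array of E18 and P0 was above every E17 array for this gene. The P0 minus E17 difference was 0.71 ± 0.15 (1.63 fold; unadjusted p = 0.000912, limma adjusted p = 0.0738), the smallest adjusted p of any member in the 5 comparisons. Its E18 minus E17 difference was 0.58 ± 0.15 (limma adjusted p = 0.948). The direction held under all 19 alternatives, between 0.40 and 0.85, with adjusted p from 0.0606 to 0.368, and a second probe set below the filter gave 0.83.

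Cox6a1, its partner in other tissues, stayed level: 6468, 6736 and 6704 in control, 6941, 6913 and 6791 in DES and 7100, 6704 and 6577 in BPA, at E17, E18 and P0. The log2 ratio of Cox6a2 to Cox6a1 increased from E17 to P0 by 0.364 in control, 0.912 in DES and 0.931 in BPA. Its mean increase was 0.736, and an exact two-sided permutation test over the 3 arrays of each age gave p = 0.1, the smallest that 3 against 3 can give.

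Genes of skeletal muscle fibres were among those whose pattern over the arrays was most like that of Cox6a2. Among 13400 tested genes the 5 whose log2 values correlated best with it over the 9 arrays were Myom2, Tnni2, Mybpc1, Apobec2 and Srpk3, with Pearson's r of 0.971, 0.961, 0.955, 0.945 and 0.943, all read from the same 9 hybridisations. Myom2 is myomesin of the sarcomere and Tnni2 is fast troponin I; they were chosen for this likeness, so their own differences with age are not given as a test. The nearest tested member was Ndufv3, a flavoprotein-arm subunit of complex I, at 0.618. Cox8b, a member below the filter, had an r of 0.818 with Cox6a2. In the list of 20 skeletal muscle fibre genes, 16 of 19 tested were higher at P0, with a median of 1.00, and 10 passed the threshold; Tnni2 is on this list too. Summed signals of the list ran from 12830 to 16060 at E17 and from 19320 to 23460 at P0, and Myh8, the perinatal myosin heavy chain, rose by 2.39 ± 0.19 (limma adjusted p = 0.00203). The part of muscle in the Cox6a2 signal was not tested.

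Cox7a1, the form of subunit VIIa in heart, skeletal muscle and brown fat, was near the filter, and it passed only through its value on the BPA P0 array: without that array it was not tested. Its signals were 35.08, 40.45 and 34.22 in control, 41.64, 49.27 and 44.58 in DES and 38.44, 42.53 and 72.85 in BPA. The 3 DES arrays lay above the 3 control arrays, and the highest value was on the BPA P0 array. The mean differences from control, 0.27 for DES and 0.39 for BPA, are given as a description with no test. Cox7a2, its partner, is described with BPA below. Of the brown fat markers 5 of 9 passed the filter, with summed signals of the list from 463 to 711.6, and Ucp1, the defining gene, was between 2.038 and 8.67 on all 9 arrays, below the filter.

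Cox8b, the muscle and brown fat form of subunit VIII, fell short of the filter on its mean and was not tested. It was at 56.82, 57.53 and 60.16 in control, at 7.733, 48.48 and 72.45 in DES and at 8.135, 43.63 and 96.59 in BPA. Both agents' E17 arrays were far below the rest, close to the pseudocount of 5.457 added before the logarithm. Each agent's array at P0 was above its array at E17. No ratio is given against those E17 arrays, whose signals were far under the filter's level of 41.2. Cox8a itself ran from 2478 to 3064 over the 9 arrays.

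The remaining tissue forms gave no difference that passed. Cox4i2, the form of lung and of smooth muscle, had 87.64, 88.18 and 88.64 in control, 88.4, 89.04 and 98.75 in DES and 102.3, 94.36 and 77.09 in BPA. The testis forms Cox6b2 (371.5 to 440.9) and Cox8c (327.6 to 484) had adjusted p of 0.758 or more in P0 against E17 by limma. Cox7b2, also of testis, was between 0.8526 and 19.38 on all arrays and was not tested. On the BPA P0 array, where the germ cell and Sertoli sum was high, Cox6b2 was at 411.3, inside its range elsewhere, and Cox8c at 484, its highest value beside 475.6 on the DES E18 array. A dimmer second probe set of Cox8c read 107.5 on the BPA P0 array and 17.07 to 64.19 on the others.

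**Figure D3:**
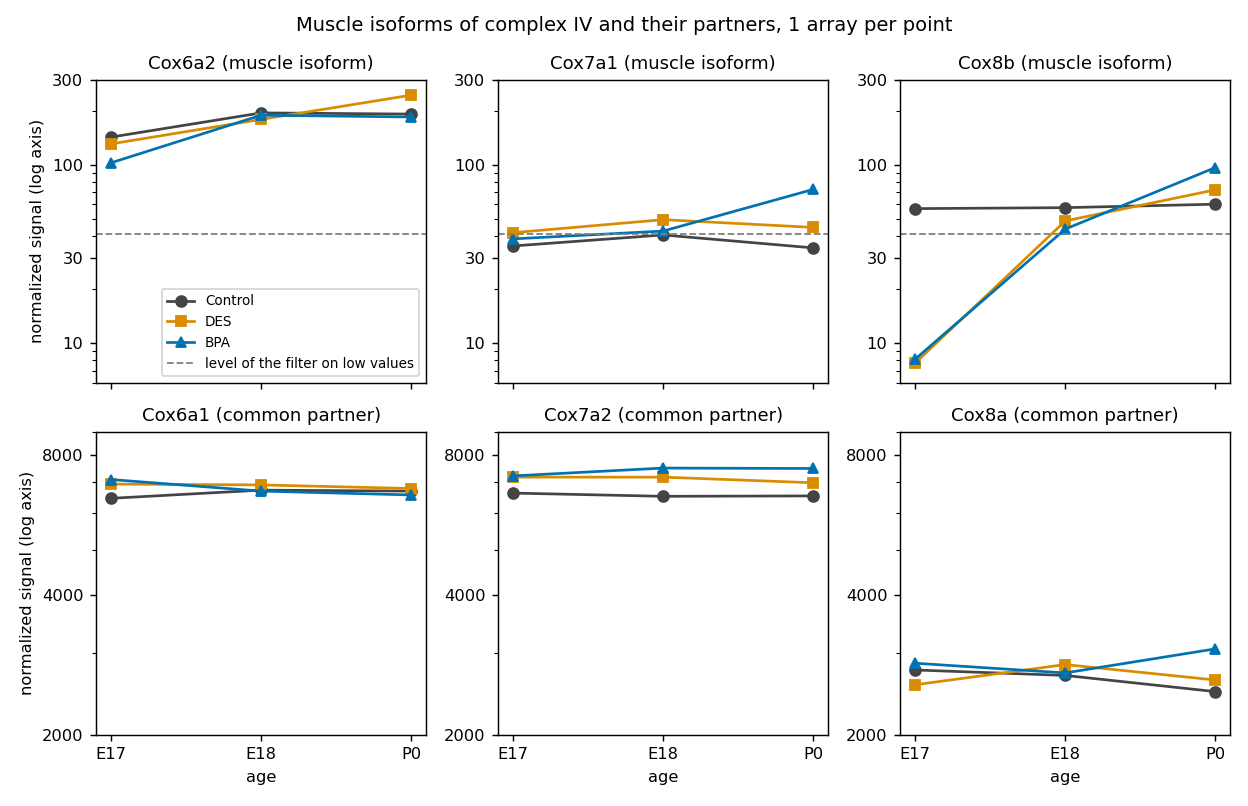
Normalized signal (vertical axis, log scale) of 3 muscle isoforms of complex IV (top) and their common partners (bottom) at E17, E18 and P0 (horizontal axis), 1 array per point, with a line per agent. The dashed line is the level of the filter on low values, 41.2, which was applied to the mean; Cox6a2 is higher at E18 and P0 than at E17 for every agent, while Cox6a1 stays between 6468 and 7100.

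Promoters of the members were read from RefSeq (GRCm38.p6), which held windows for 66 of 80. In the 250 bases before the start, both strands were searched for letters that nuclear genes of the respiratory chain are known for: those bound by NRF1 (GCGC, any 1 base, then TGCGC), by ETS factors such as GABP (CCGGAA) and by Sp1 (GGGCGG). NRF1 letters were present for 11 of 66 members (16.7%), for 8.61% of 10754 tested genes with a window and for 4.23% of all 27025 genes in the table. ETS letters were present for 20 members (30.3%), against 23.3% and 13.6%. Sp1 letters were present for 25 members (37.9%), which is under the 62.4% of tested genes and near the 35.4% of all genes. An E box (CAGCTG), a sequence read by muscle regulators among others, was in 6 members (9.09%), against 14.7% of tested genes.

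The NRF1 match nearest the start of each of these 11 genes is shown so that the shared letters can be compared, 5′ to 3′ on the gene's strand, with the match in capitals and up to 10 bases on either side. The central base differs between them, and Sdha and Ndufb4 hold 3 matches each.
Atp5c1 (chr2:10080433-10080459, minus strand, match beginning 17 bases before the start): ctgagctcccGCGCACGCGCactgagt
Atp5g2 (chr15:102671070-102671099, minus strand, match beginning 42 bases before the start): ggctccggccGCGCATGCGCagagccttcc
Atp5h (chr11:115420041-115420070, minus strand, match beginning 141 bases before the start): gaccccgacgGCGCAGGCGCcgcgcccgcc
Atp5k (chr5:108434430-108434459, minus strand, match beginning 50 bases before the start): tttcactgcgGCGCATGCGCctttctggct
Cox6a1 (chr5:115349056-115349085, minus strand, match beginning 117 bases before the start): cggataaagtGCGCAGGCGCtggagttcct
Ndufa5 (chr6:24527697-24527726, minus strand, match beginning 26 bases before the start): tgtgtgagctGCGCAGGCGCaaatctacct
Ndufa8 (chr2:36049349-36049378, minus strand, match beginning 30 bases before the start): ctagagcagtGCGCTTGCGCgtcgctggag
Ndufb4 (chr16:37654371-37654400, minus strand, match beginning 22 bases before the start): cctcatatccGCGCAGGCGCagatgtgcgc
Ndufs5 (chr4:123718265-123718294, minus strand, match beginning 98 bases before the start): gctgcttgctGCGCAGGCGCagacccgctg
Sdha (chr13:74350241-74350260, minus strand, match beginning 10 bases before the start): gcgactcggtGCGCAAGCGC
Sdhd (chr9:50603909-50603938, minus strand, match beginning 79 bases before the start): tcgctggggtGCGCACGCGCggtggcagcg

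The 11 genes belong to complexes I, II, IV and V. Ndufb4 was not tested. In P0 against E17, 6 of the 10 others were higher and 4 lower, none past limma's threshold, with a median of 0.0891 beside 0.0118 for all 77 tested members. The values ran from -0.14 for Atp5h to 0.25 for Ndufa8. Both medians are those of the fit with all arrays. Without the BPA P0 array Atp5c1, Atp5g2, Atp5k, Ndufa8 and Sdhd were at 0.0325, 0.0255, 0.034, 0.205 and 0.142. In the same fit Atp5h, Cox6a1, Ndufa5, Ndufs5 and Sdha were at -0.0886, -0.00629, -0.0347, -0.0788 and -0.0081. With all arrays Atp5h and Atp5k had been at -0.14 and 0.24.

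Whole upstream windows are shown for Cox6a1, whose level was flat, and for the 2 muscle forms that had a window, Cox7a1 and Cox8b. All letters searched, with the YY1 letters AANATGGC, the CCAAT box CCAAT and the TATA box TATAAA added, are in capitals on either strand. Each window ends at the base before the start.
Cox6a1 (chr5:115348959-115349208, minus strand): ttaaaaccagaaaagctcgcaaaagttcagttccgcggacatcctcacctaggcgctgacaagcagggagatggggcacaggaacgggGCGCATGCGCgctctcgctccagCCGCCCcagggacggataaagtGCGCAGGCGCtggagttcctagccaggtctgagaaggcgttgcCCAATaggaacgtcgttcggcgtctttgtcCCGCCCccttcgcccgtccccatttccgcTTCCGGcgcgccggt
Cox7a1 (chr7:30183921-30184170, plus strand): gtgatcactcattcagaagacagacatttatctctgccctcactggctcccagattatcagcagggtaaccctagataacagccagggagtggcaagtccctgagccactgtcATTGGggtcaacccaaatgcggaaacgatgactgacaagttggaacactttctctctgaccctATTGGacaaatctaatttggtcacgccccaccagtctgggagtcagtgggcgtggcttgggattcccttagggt
Cox8b (chr7:140900447-140900696, minus strand): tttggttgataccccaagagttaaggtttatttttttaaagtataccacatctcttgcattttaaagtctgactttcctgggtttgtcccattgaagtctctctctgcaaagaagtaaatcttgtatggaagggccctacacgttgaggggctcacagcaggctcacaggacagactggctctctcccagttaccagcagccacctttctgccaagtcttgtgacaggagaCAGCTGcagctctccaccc

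The Cox6a1 window held 2 NRF1 matches, 1 ETS, 2 Sp1 and 1 CCAAT match. Cox7a1 held 2 CCAAT boxes and none of the other letters, and Cox8b held 1 E box, 19 bases before the start, and none of the others. CCAAT letters were present for 42.4% of the members and 39.8% of tested genes with a window, TATA letters for 10.6% and 8.55%, and YY1 letters for 9.09% and 4.87%. A match is a description of the letters, not of a bound site.

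The second comparison asks whether fetal exposure to BPA left a difference after dosing ended. No member passed the threshold (2 of 13400 tested genes did, 0.0149%), and the smallest adjusted p of a member was 0.394. The direction was uneven: 60 of 77 members were higher with BPA and 17 lower, where all tested genes were 52.3% higher, and the members' median was 0.049 against 0.00798. Among the 60 is Cox7a1, which passed the filter only through its value on the BPA P0 array. The count rests on the scale, since in the deposited values, where the median of all tested genes was -0.24, only 7 of 77 were above 0; relative to that median the members were 0.0692 higher. At an unadjusted p under 0.05, 7 members were higher (9.09%) and 0 lower, beside 4.41% and 3.88% of all tested genes. The higher count was 0 in the deposited values, 1 with no intensity trend in the variance, 2 when each gene's probe sets were averaged, 3 without the control E18 array and 9 after scaling to one trimmed mean. Arrays did not overlap for 11 members (14.3%), all of them higher with BPA, beside 5.60% higher and 4.62% lower of all tested genes.

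The members' shift with BPA was largest at P0. Over the 77 members the median BPA minus control difference was 0.0311 for E17, 0.0396 for E18 and 0.132 for P0, with 49, 48 and 58 members above 0, while all tested genes had medians of -0.0106, 0.00235 and 0.0268. Without the BPA P0 array 50 of 76 tested members were above 0 and their median was 0.023 above that of all tested genes, against 0.041 with it. Without that array and the DES E17 array 47 of 77 were above 0, and 4 members were higher and 2 lower at an unadjusted p under 0.05. Marker lists differed between the same arrays, with no gene of those named here past the threshold. With BPA all 10 smooth muscle genes were higher (median 0.72), as were all 9 squamous (1.22), all 8 urothelial (0.52) and all 5 fat storage genes tested (0.61). Of 7 neuron and glia genes 6 were lower (-0.16), and of 10 mesenchyme genes 7 were lower (-0.0402). Their part in the subunits' values was not tested.

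**Figure D4:**
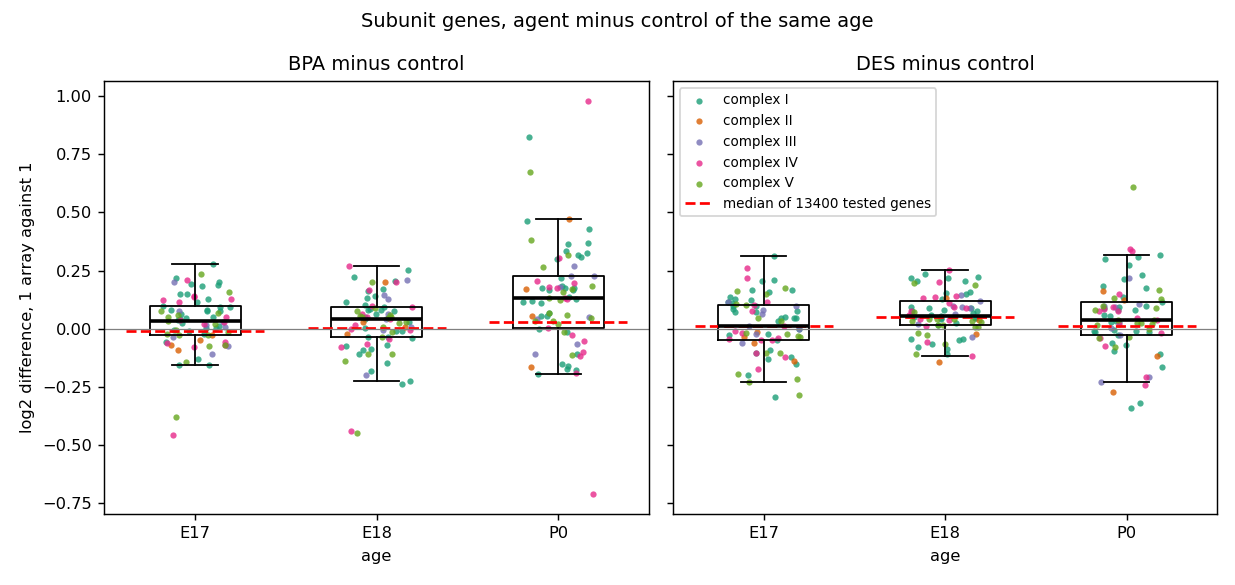
Log2 difference of the 77 tested members between an agent's array and the control array of the same age (vertical axis), at E17, E18 and P0 (horizontal axis), for BPA and DES. Points are genes coloured by complex, boxes give the median and quartiles with whiskers to 1.5 times the box, and dashed lines are the median of 13400 tested genes; the BPA box at P0 is the highest, with a median of 0.132.

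Cox7a2, the ubiquitous form of subunit VIIa, had the smallest p of the members. It was read at 6638, 6533 and 6546 in control, 7229, 7516 and 7500 in BPA and 7185, 7185 and 6987 in DES, at E17, E18 and P0. All BPA and all DES arrays were above all control arrays. The BPA minus control difference was 0.17 ± 0.05 (1.13 fold; unadjusted p = 0.0059, limma adjusted p = 0.394), and a second probe set gave 0.18. The DES minus control difference was 0.12 ± 0.05 (limma adjusted p = 0.776), and the second probe set gave 0.13. Both comparisons use the same control arrays.

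Cox6c, a small subunit on the outside of the complex, had 6677, 6546 and 6913 in control and 7286, 7349 and 7811 in BPA. The groups did not overlap, and the difference was 0.16 ± 0.05 (limma adjusted p = 0.453); a second probe set gave 0.0976. Of the 15 tested members of complex IV, 9 were higher with BPA and 6 lower. One of the higher ones, Cox7a1, passed the filter only through the BPA P0 array. The lowest difference was that of Cox6a2, -0.18 ± 0.15 (limma adjusted p = 0.801), and it came from E17, where the BPA array read 102.6 and the control array 143. In the same comparison 15 of 19 skeletal muscle fibre genes were lower, with a median of -0.46 and none past the threshold.

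Complex I was the most one-sided, with 29 of 33 members higher with BPA and a median of 0.0555. By age, 26, 19 and 25 of the 33 were higher at E17, E18 and P0. Ndufa3, an accessory subunit of the membrane arm, had 2863, 3058 and 2647 in control, 3274, 3425 and 3296 in BPA and 3214, 3159 and 3278 in DES. Both agents' arrays lay above the control arrays at every age, by 0.22 ± 0.07 for BPA and 0.17 ± 0.07 for DES (limma adjusted p = 0.4 and 0.776). A second bright probe set gave 0.14 and 0.15, and a dim one -0.09 and -0.29. Ndufa4 is now assigned to complex IV but is counted here in complex I by its name. It had 3392, 2974 and 3005 in control and 3548, 3541 and 3397 in BPA, a difference of 0.16 ± 0.07 (limma adjusted p = 0.550).

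Ndufv1, the flavin-binding subunit where NADH is oxidised, was higher with BPA by 0.28 ± 0.11 (limma adjusted p = 0.556), with 1254, 1347 and 1481 in control and 1523, 1478 and 1996 in BPA. The E18 array with BPA was within the control range, and without the BPA P0 array the difference was 0.15. Its other probe sets gave 0.11 each. Ndufb9, an accessory subunit of the membrane arm, had 2478, 2579 and 2562 in control and 2749, 2699 and 3530 in BPA. Every BPA array was above every control array, and the difference was 0.23 ± 0.09 (limma adjusted p = 0.548), or 0.0992 without the BPA P0 array and 0.13 on a second bright probe set. Ndufa10, an accessory subunit related to nucleoside kinases, had the lowest difference of complex I, -0.09 ± 0.10 (limma adjusted p = 0.856), and the mean of its probe sets was 0.09.

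In complex III, Uqcrq, a ubiquinone-binding subunit, had 1162, 1162 and 1134 in control and 1337, 1286 and 1285 in BPA, with no overlap and a difference of 0.18 ± 0.08 (limma adjusted p = 0.597); a dim second probe set gave 0.00593. Uqcrfs1 was lowest there, at -0.05 ± 0.08. In complex II, Sdha, the flavoprotein that oxidises succinate, was at 0.14 ± 0.10 (limma adjusted p = 0.770), or 0.0195 without the BPA P0 array, and Sdhd at -0.06 ± 0.08. In complex V 14 of 17 members were higher, from -0.11 ± 0.13 for Atp5md, a small subunit of the dimer interface, to 0.14 ± 0.10 for Atp5l. Without the BPA P0 array these were -0.27 and 0.0346.

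The third comparison asks the same of DES, with the same control arrays. No member and none of the 13400 tested genes passed limma's threshold (0%). Of the 77 members 55 were higher with DES, beside 56.6% of all tested genes, with a median of 0.0429 against 0.0248; averaging each gene's probe sets gave 48, and the deposited values, where the median of all tested genes was 0.11, gave 75. At an unadjusted p under 0.05, 3 members were higher (3.9%) and 0 lower, beside 4.40% and 1.96% of all tested genes; without the DES E17 array, in the deposited values or with no intensity trend the higher count was 0, and without the control E17, control E18, BPA E17 or BPA E18 array it was 1. The DES and control arrays did not overlap for 8 members (10.4%), all higher, beside 6.89% higher and 4.09% lower. These 8, like the 55, include Cox7a1, which passed the filter only through the BPA P0 array. Taken by age, the median over members was 0.0119 (E17), 0.0548 (E18) and 0.0387 (P0), beside 0.0102, 0.0481 and 0.0106 for all tested genes. With DES all 10 smooth muscle genes (median 0.28), all 9 squamous (0.44) and all 8 urothelial genes (0.26) were higher and 5 of 7 neuron and glia genes lower (-0.22), none past the threshold. Their part in the subunits' values was not tested.

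Besides Ndufa3 and Cox7a2, the third member with a small p was Atp5mpl, a proteolipid of the ATP synthase membrane part. It was at 2472, 2461 and 2514 in control and 2742, 2804 and 2676 in DES, with no overlap, and in BPA at 2609, 2552 and 2546. The DES minus control difference was 0.14 ± 0.06 (limma adjusted p = 0.776), and for BPA it was 0.05 ± 0.06 (limma adjusted p = 0.880). By complex, 26 of 33 members of complex I were higher, 1 of 4 of complex II, 6 of 8 of complex III, 11 of 15 of complex IV and 11 of 17 of complex V. The lowest values of complexes II and V were -0.10 ± 0.08 for Sdhd and -0.08 ± 0.13 for Atp5md.

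Atp5k, subunit e of ATP synthase and a component of its dimer interface, changed its order between agents with age. On its brightest probe set it had 4067, 3650 and 3093 in control, 3472, 4184 and 4725 in DES and 3126, 3380 and 4932 in BPA, at E17, E18 and P0. Control was highest at E17 and lowest at P0, and both agents ran the other way. The slope of the BPA minus control difference was 0.53 ± 0.09 log2 units per age step (limma adjusted p = 0.139), the smallest adjusted p of the members for either agent. No member passed in this test for BPA, where 8 of 13400 genes did (0.0597%), or for DES, where none did (0%); at an unadjusted p under 0.05 there were 4 members for BPA and 2 for DES, beside 9.69% and 8.94% of all tested genes. Fitted to the BPA and control arrays alone, with 1 residual degree of freedom, the same slope had an adjusted p of 0.00568, in a fit that called 113 genes in all. That of DES, 0.41 on its own arrays, had 0.0282, where 35 genes were called.

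The 3 probe sets of Atp5k differ. The second gave 2808, 3715 and 3221 in control, 2777, 2582 and 3722 in DES and 2607, 2481 and 4550 in BPA. The third gave 1659, 1731 and 1263, 1674, 1641 and 1570, and 1622, 1601 and 1325 in the same order. Only the first shows control declining at each step, and the 2 others have the suffix x_at, which marks probes shared with other sequences. P0 minus E17 was 0.24 on the first, 0.47 on the second and -0.26 on the third. Over all members, the other probe sets above the filter (69 sets in 45 genes) had the sign of the chosen one in 42 of 69 cases for P0 against E17, in 45 for BPA and in 45 for DES.

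**Figure D5:**
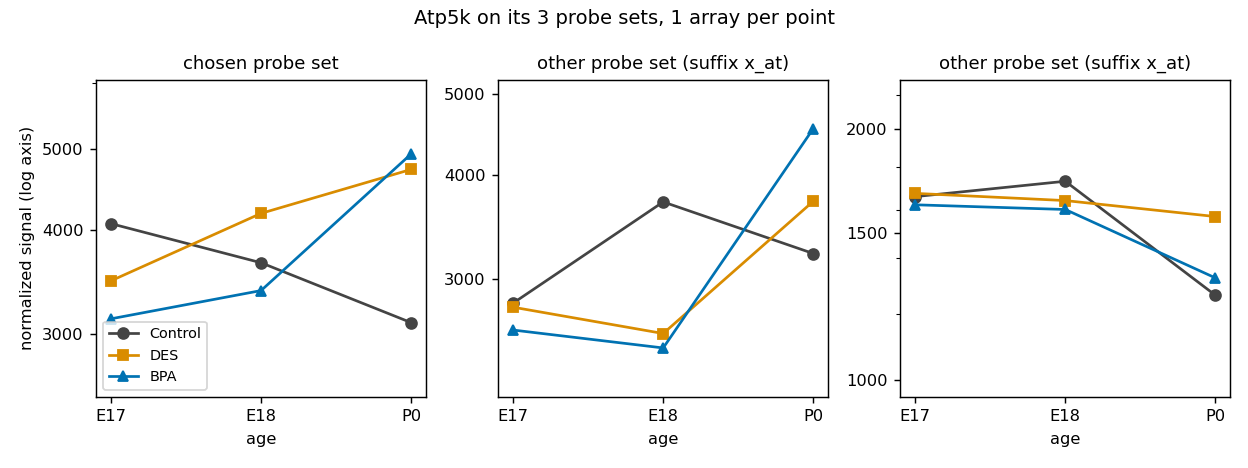
Normalized signal (vertical axis, log scale, with the same ratio of top to bottom in each panel) of Atp5k on its 3 probe sets at E17, E18 and P0 (horizontal axis), 1 array per point, with a line per agent. On the chosen probe set control declines from 4067 to 3093 while BPA climbs from 3126 to 4932; on the third every agent's line ends lower at P0 than at E17, and control passes from above BPA at E18 to below it at P0.

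Related mitochondrial genes were examined as lists. None of 41 assembly factors, 14 carriers and subunits outside the name rule, 18 regulators of mitochondrial biogenesis, 16 genes of the citric acid cycle, 14 of fatty acid oxidation or 16 of import and membrane organisation passed the threshold in any of the 5 comparisons by limma; members at an unadjusted p under 0.05 in P0 against E17 numbered 1, 1, 0, 0, 2 and 1 higher and 5, 2, 2, 0, 1 and 2 lower. All tested genes gave 9.42% and 9.78%, beside which the 5 assembly factors are 12.2% of their list. The regulators had the lowest median in that comparison, -0.15, with 6 higher and 12 lower. Esrra, the estrogen-related receptor that acts on respiratory genes, was lower by -0.57 ± 0.15 (limma adjusted p = 0.103). Gabpb1, a GABP subunit, was at 0.16 ± 0.13 and Tfb2m, a mitochondrial transcription factor, at 0.15 ± 0.19.

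Cycs, the cytochrome c that links complexes III and IV, did not pass in any comparison. It was at -0.27 ± 0.07 for P0 against E17 (limma adjusted p = 0.0877), at 0.35 ± 0.07 for BPA (limma adjusted p = 0.254) and at 0.20 ± 0.07 for DES (limma adjusted p = 0.776). With BPA, 12 of 14 genes of its list were higher with a median of 0.12, 29 of 41 assembly factors with 0.07, and 7 of 18 regulators with -0.05. Tfb1m, which modifies mitochondrial ribosomal RNA, was at 0.34 ± 0.11 with BPA and 0.46 ± 0.11 with DES, and Nrf1, the factor whose letters were searched above, at -0.26 ± 0.14 and -0.08 ± 0.14 (limma adjusted p between 0.426 and 0.944). Of the import chaperones, Hspd1 was at -0.50 ± 0.10 for P0 against E17 (limma adjusted p = 0.0671).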

How the data were processed

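RNA of 9 urogenital sinus samples was hybridised to Affymetrix arrays. The authors deposited linear probe set intensities. MAS5 is named in the submitters' processing notes, with no version or scaling target given in the sources used here. Intensities were quantile-normalized between arrays and transformed as log2(signal + 5.457), the pseudocount being their 10th percentile, which understates differences at low signal. Symbols came from the platform's annotation: 34958 of 45101 carried 1 symbol, 932 several and 9211 none listed, and all 80 members matched RefSeq. Genes with a mean log2 value of at least 5.543 (a signal of 41.2), the 40th percentile over probe sets, were tested.

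A model with age and agent was fitted to all tested genes with limma 3.58.1 in R 4.3.3 (lmFit, eBayes with an intensity trend; 4 residual degrees of freedom). P-values were adjusted by Benjamini-Hochberg over the 13400 genes, threshold 0.05. Age slopes used a linear age step for each agent (2 residual degrees of freedom). The code was tested on simulated data. The number of arrays limits the precision.

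The members and gene lists were chosen with earlier results of these data known. Named were members past the threshold, the tissue forms of complex IV with their partners, the highest and lowest member of each complex and, for other lists, the 2 highest and 2 lowest genes; the remaining members were chosen after their values were seen, by an unadjusted p under 0.05, by low spread or by their role.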

Additional observations from a re-analysis of the deposited data

How the results depend on the processing

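Direction was judged against the median of all tested genes. In the 5 comparisons the number of members past the threshold was 0 under every alternative except without the DES P0 array, where 1 passed from E17 to P0 (range with one array left out, 0 to 1). Age slopes gave 0 members under the other settings and 1, Atp5k, when only the agent and control arrays were fitted (1 for BPA and 1 for DES, in fits that called 113 and 35 genes in all) and in several fits without one array (0 to 1 for each agent), all with 1 residual degree of freedom; a slope without an age term could not be fitted. In the deposited values 7 members were above 0 for BPA and 4 for P0 against E17. Age is a term of the main fit, and it is what the arrays of different agents share; leaving it out (no replicate block) called 0 members in either agent comparison. Of the named differences, 564 of 583 values kept their direction and side of the threshold and 18 reversed. Averaging a gene's probe sets gave 0.0912 for Ndufa10, -0.0644 for Sdha and 0.104 for Sdhd with BPA, 0.0465 for Sdhd with DES, and 0.0378 for Sdhc and -0.139 for Sdhd in P0 against E17. Cox6a2 with DES was 0.0987 as deposited and 0.0144 after trimmed-mean scaling, and a fit that omitted the P0 array of BPA and the E17 array of DES gave 0.0684 for Atp5md with DES. With one array left out, differences reached from -0.0645 to 0.412 for Atp5k, -0.0868 to 0.146 for Cox6a2 and 0.0074 to 0.0716 for Sdhc with DES, and from -0.268 to 0.0827 for Atp5md, -0.149 to 0.00795 for Ndufa10, -0.0971 to 0.0146 for Sdhd and -0.0874 to 0.0118 for Uqcrfs1 with BPA. The cause was not tested.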
